A study of Mus musculus with 67 samples.

Results

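Retinal bipolar cell genes were followed through 7 transcripts, Grm6, Trpm1, Cabp5, Pcp2, Prkca, Isl1 and Vsx1. They were chosen by symbol as known markers of these interneurons, with earlier results of these data known. Each was matched to the deposited tables by Ensembl identifier. All 7 were present among the 16930 genes of the retina table and the 16714 genes of the RPE (retinal pigment epithelium) table, and all 7 passed the filter on low values in both. In retina they averaged between 25.3 and 518 CPM (reads per 1 M of the authors' effective library size) across the groups, backed by 266 to 14763 reads per gene and library.

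The mice were C57BL/6J animals that carried Abca4-/- Rdh8-/-, the loss of an outer segment transporter and of a retinol dehydrogenase that together clear retinal released from bleached pigment, and the line is called photosensitive in the labels. Every group carried this genotype, so no wild-type expression was measured, and neither age nor sex of the animals was given. The groups were NB, 6h, 1d and 3d, with 6, 3, 4 and 4 retina libraries and 5, 3, 4 and 4 RPE libraries. Each later time was compared with NB and the later times with each other. The labels give neither the meaning of NB nor the event from which the hours and days run. Each library pooled the 2 eyes of a mouse, and the RPE libraries came from cells detached by shaking in a preserving solution, per the labels' protocols. Replicates are separate animals only as far as the labels say so, and p-values measure the spread between these libraries. Retina depth was 22.6 to 32.4 M reads in a deeper set (6h and the NB libraries named here A1 and A2) and 9.45 to 15.2 M reads in a shallower set (NB B1 to B4, 1d and 3d). RPE depth was 23.1 to 26.8 M reads (6h and NB A1) and 11.5 to 14.4 M reads (NB B1 to B4, 1d and 3d), so 6h differs from 1d and 3d in set as well as in time. The tissue labels matched their markers: 10 rod genes summed to between 20854 and 72663 CPM in retina and between 3297 and 15237 CPM in RPE, while RPE genes summed to between 304 and 828 CPM in retina and between 6302.5 and 25691 CPM in RPE.

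Bipolar cells carry the signals of rods and cones to the inner retina. ON bipolar cells sense glutamate through the metabotropic receptor mGluR6, which acts through the G protein Go to hold the cation channel TRPM1 closed in the dark, and OFF bipolar cells use ionotropic glutamate receptors instead. Rod bipolar cells are ON cells that serve rods, and the nuclear layer that holds bipolar cells lies next to the photoreceptors that bright light damages in mice of this genotype.

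Most of the 7 genes dipped in retina at 1d and stood at or above NB at 3d. At 1d against NB, 5 of 7 were lower (Grm6, Pcp2, Prkca, Isl1 and Vsx1), Trpm1 was higher and Cabp5 did not pass the test, beside 27.5% of all tested genes called lower and 24% called higher (limma, adjusted p under 0.05). In 4 of the 7 no 1d library overlapped NB, beside 34.4% of all tested genes. From 1d to 3d, 6 of 7 rose and Trpm1 did not pass, beside 9.79% of all tested genes called higher, and in all 6 the 4 libraries at 3d lay above the 4 libraries at 1d, beside 9.31% of all tested genes. At 3d against NB, 4 of 7 were higher (Trpm1, Cabp5, Pcp2 and Isl1) and none lower, beside 19.3% and 23.9% of all tested genes called higher and lower, and 3 of the 7 lay above every NB library, beside 13.5% of all tested genes. The median log2 fold change of the 7 was -0.28 at 1d and 0.19 at 3d against NB and 0.41 from 1d to 3d, beside -0.01, -0.02 and -0.00068 over all tested genes. Summed markers of some other retinal cells had the same low point. The mean sum in NB, 1d and 3d was 69751, 27488 and 38028 CPM for 10 rod genes. For 8 cone genes it was 1398, 695 and 1177 CPM. It was 5124, 2815 and 5833 CPM for 8 Muller glia genes, of which 2 were higher and 3 lower at 1d against NB. For 6 horizontal cell genes it was 450, 396 and 454 CPM, and of these genes 2 were higher and 2 lower at 1d against NB. The sums of 10 amacrine genes (1501, 1694 and 1789 CPM) and 8 ganglion cell genes (886, 994 and 1008 CPM) had no low point at 1d. From 1d to 3d, 9 of 10 rod, 7 of 8 cone and 5 of 8 Muller glia genes were called higher and none lower. No rod, cone or Muller glia marker was at 0 in any of these libraries. The part of other cells in the course of the 7 genes was not tested.

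The size of these changes was modest, between 13.3% and 22.4% for the falls at 1d and between 14.1% and 24.8% for the rises at 3d. In the authors' deposited tables, whose p-values appear to test against a minimum fold, no member approached significance in retina (the smallest unadjusted p was 0.668, for Isl1 at 6h), while the deposited log2 fold changes had the sign found here for every member at every time. The rod share of the RNA fell: the 10 markers summed to 65102 to 72663 CPM in NB and 20854 to 35899 CPM at 1d, so the choice of scaling was tested. With each library rescaled to its plain total, the median of all genes moved to 0.15 at 1d and 0.12 at 3d against NB. The share of all tested genes called under plain totals is not given here. Counts under that scaling, in this paragraph and below, therefore stand beside these medians only. Under that scaling Pcp2, Prkca and Vsx1 remained lower at 1d (log2 fold change -0.11, -0.20 and -0.18), Grm6 and Isl1 no longer passed (-0.04 and -0.11), Cabp5 stood on the other side of 0 (0.07, not past in either), and all 7 were higher at 3d. At 6h the scaling ended 1 call, Cabp5 (-0.14, adjusted p = 0.0806). The rise from 1d to 3d was called for the same 6 genes under both scalings. In whole retina, fewer bipolar cells and less RNA per cell cannot be told apart.

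**Figure D1:**
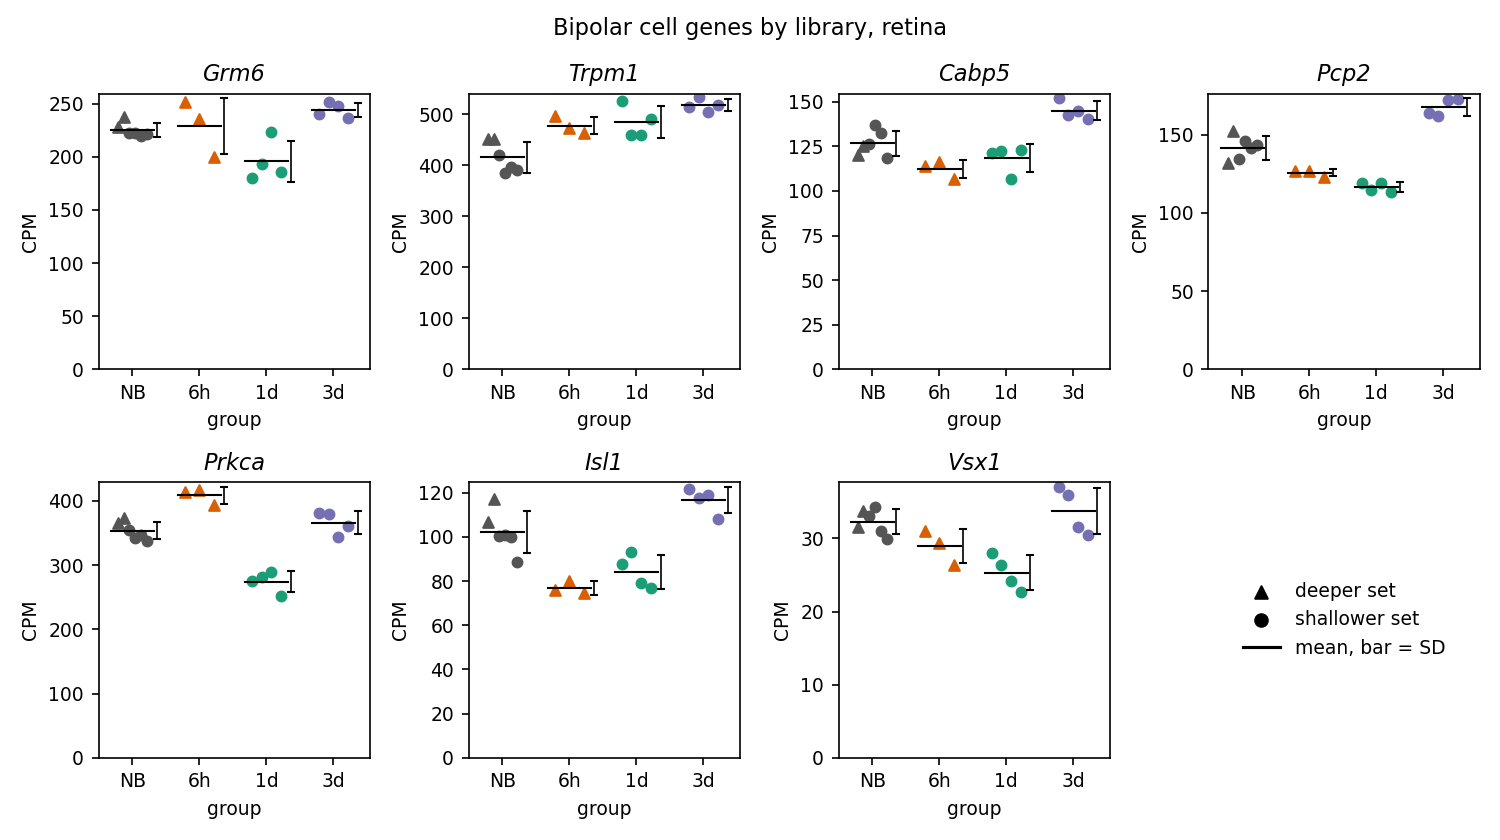
Level of each bipolar cell gene in every retina library (CPM, y axis) by group (x axis); triangles are libraries of the deeper set, circles those of the shallower set, and lines and bars give mean and SD. The 1d circles of Pcp2, Prkca and Vsx1 lie below every NB library, and Trpm1 lies above NB at each time.

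Grm6 (ENSMUSG00000000617, chromosome 11 from 50850369 to 50866208 in GRCm38.p6) codes for mGluR6, the receptor at the tips of ON bipolar dendrites. Its 6 NB libraries ran from 219 to 238 CPM with a median of 223. The 6h libraries 1 to 3 stood at 252, 235 and 199.7 CPM, the 1d libraries 1 to 4 at 180.4, 193, 223 and 186 CPM, and the 3d libraries at 241, 252, 247 and 237 CPM. The 6h libraries spread on both sides of NB, and at 1d 3 of 4 lay below every NB library while replicate 3 lay inside their range. Means were 225 ± 6.79 (SD, n = 6), 229 ± 26.7 (n = 3), 196 ± 19.2 (n = 4) and 244 ± 6.85 CPM (n = 4) in NB, 6h, 1d and 3d. The fall at 1d was -0.21 ± 0.06 on the log2 scale (SE, adjusted p = 0.00748), the rise from 1d to 3d was 0.32 ± 0.07 (adjusted p = 0.00141), and 3d against NB did not pass (0.12 ± 0.06, adjusted p = 0.13).

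Trpm1 (ENSMUSG00000030523, chromosome 7 from 64153835 to 64269772), the channel at the end of the mGluR6 cascade and also a gene of pigment cells, took a different course. It ran from 384 to 453 CPM in NB with a median of 408, stood at 497, 472 and 464 CPM at 6h, at 525.96, 460.3, 459 and 491 CPM at 1d, and at 515, 533, 505 and 518 CPM at 3d. Every later library lay above the NB range. Means were 416 ± 30.6 CPM in NB and 478 ± 17.2, 484 ± 31.5 and 518 ± 11.7 CPM at 6h, 1d and 3d, with log2 fold changes of 0.20 ± 0.06 (adjusted p = 0.0113), 0.22 ± 0.05 (adjusted p = 0.00207) and 0.32 ± 0.05 (adjusted p = 0.000107). The 2 NB libraries of the deeper set were the highest of the NB libraries (452 and 453 CPM), and with these alone as NB the 6h difference was 0.08 and did not pass (adjusted p = 0.402), nor did it pass without 6h replicate 1 (0.18, adjusted p = 0.0706). With the shallower NB libraries alone, 1d and 3d were higher by 0.28 and 0.38 (adjusted p = 0.000156 and 1.98e-05).

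RPE transcripts varied between retina libraries and bear on Trpm1, because the RPE table holds it at a high level. The RPE genes, 7 of 8 in the retina table, summed to 342 to 544 CPM in NB, 628 to 828 CPM at 6h, 304 to 469 CPM at 1d and 374 to 613 CPM at 3d, with no library at 0 for any of them, and the 6h libraries lay above all NB libraries. With that sum as a covariate, an alternative chosen after seeing the data, Trpm1 was higher by 0.33 at 6h, 0.20 at 1d and 0.35 at 3d and passed each time (adjusted p = 0.00884, 0.00426 and 4.55e-05). Because the sum at 6h did not overlap NB, the 6h value of this fit is an extrapolation. The part of RPE RNA in the Trpm1 rise cannot be told from it. Of the other melanocyte and melanosome genes, 3, 0 and 0 of 8 were called higher at 6h, 1d and 3d and none lower. Of all tested genes 16.9%, 24% and 19.3% were called higher at these times.

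The promoters of Grm6 and Trpm1 are shown because these partners of 1 cascade moved apart at 1d, and Trpm1 has 2 annotated starts. Each run is the 250 bases before an annotated start, from RefSeq on GRCm38.p6, in the direction of transcription (+ strand for both genes), at chr11:50850435-50850684 for Grm6 and at chr7:64153585-64153834 and chr7:64185209-64185458 for the upstream and downstream starts of Trpm1. Capitals mark 4 motifs searched on both strands: TAATCC, the site of the photoreceptor and bipolar factors CRX and OTX2; TAATTA, a homeodomain core; TCATGTG, the core of the M-box bound by the pigment cell factor MITF; and CATATG, an E-box.
Grm6: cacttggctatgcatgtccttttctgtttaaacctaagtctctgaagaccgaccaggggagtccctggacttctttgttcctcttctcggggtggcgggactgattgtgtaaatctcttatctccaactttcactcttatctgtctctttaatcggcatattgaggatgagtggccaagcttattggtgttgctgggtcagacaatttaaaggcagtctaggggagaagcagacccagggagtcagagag
Trpm1 upstream start: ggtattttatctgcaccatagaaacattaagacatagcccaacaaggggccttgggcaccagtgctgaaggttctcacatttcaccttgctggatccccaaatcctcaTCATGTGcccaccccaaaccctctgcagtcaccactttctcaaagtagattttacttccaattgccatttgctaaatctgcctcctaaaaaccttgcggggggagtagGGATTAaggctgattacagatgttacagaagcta
Trpm1 downstream start: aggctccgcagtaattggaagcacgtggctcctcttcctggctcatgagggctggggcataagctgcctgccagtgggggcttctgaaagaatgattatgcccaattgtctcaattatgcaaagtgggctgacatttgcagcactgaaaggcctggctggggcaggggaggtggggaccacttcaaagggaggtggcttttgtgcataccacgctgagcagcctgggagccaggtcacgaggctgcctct
The upstream Trpm1 window held TCATGTG beginning 142 bases before the start and TAATCC on the opposite strand beginning 34 bases before it. These letters were found in 3.25% and 6.25% of the 32851 annotated windows of this length. The Grm6 and downstream Trpm1 windows, which lie inside the spans given above for these genes, held none of the 4. The counts are per gene, so they do not tell which start the Trpm1 reads came from.

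Pcp2 (ENSMUSG00000004630, chromosome 8 from 3623369 to 3625547) codes for a small protein of rod and some cone bipolar cells that binds the alpha subunit of Go. Its NB libraries ran from 132 to 153 CPM with a median of 142. It stood at 127, 127 and 123 CPM at 6h, at 119, 115, 119 and 113 CPM at 1d, and at 164, 162, 172 and 173 CPM at 3d. The groups formed 4 separate bands with no overlap, 1d lowest and 3d highest, although 1d against 6h did not pass the test (-0.11 ± 0.05, adjusted p = 0.0961). Log2 fold changes against NB were -0.17 ± 0.05 at 6h (adjusted p = 0.00604), -0.28 ± 0.04 at 1d (adjusted p = 1.37e-05) and 0.24 ± 0.04 at 3d (adjusted p = 0.000105). The rise from 1d to 3d, 0.52 ± 0.05 (adjusted p = 8.19e-08), was the steepest of the 7, from 117 ± 2.99 to 168 ± 5.59 CPM. With the 2 deeper NB libraries alone the 6h fall was -0.17 and passed (adjusted p = 0.0492).

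Cabp5 (ENSMUSG00000005649, chromosome 7 from 13385960 to 13408887), a calcium sensor of rod bipolar and several cone bipolar types, was lower at 6h, did not pass at 1d and was highest at 3d. It ran from 119 to 137 CPM in NB with a median of 126, and stood at 114, 116 and 106 CPM at 6h, 121, 123, 107 and 123 CPM at 1d, and 152, 143, 145 and 140.5 CPM at 3d. The 3d libraries lay above all others, and 3 of 4 libraries at 1d lay inside the NB range. It was higher than NB at 3d by 0.20 ± 0.05 (adjusted p = 0.00358) and higher than 1d by 0.30 ± 0.05 (adjusted p = 0.000562). The 6h difference of -0.17 ± 0.05 (adjusted p = 0.0182) was not called with the deeper NB libraries alone (-0.13, adjusted p = 0.176), nor without 6h replicate 3 (-0.14, adjusted p = 0.119).

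Prkca (ENSMUSG00000050965, chromosome 11 from 107933387 to 108343888) codes for protein kinase C alpha, the classical marker of rod bipolar cells. It ran from 338 to 373 CPM in NB with a median of 351, rose to 414, 417 and 394 CPM at 6h, and stood at 276, 281, 289 and 252 CPM at 1d and 381, 379, 343 and 361 CPM at 3d. Every 6h library lay above every other group and every 1d library below every other group. Its mean was 408 ± 12.5 CPM at 6h and 274 ± 15.9 CPM at 1d, a difference of -0.57 ± 0.05 on the log2 scale (adjusted p = 1.14e-07). That contrast crosses the depth sets, and with the set as a term, chosen after seeing the data, it was -0.48 (adjusted p = 0.000231). Against NB, Prkca was higher at 6h by 0.21 ± 0.05 (adjusted p = 0.00299), lower at 1d by -0.37 ± 0.05 (adjusted p = 1.71e-06), and did not pass at 3d (0.05 ± 0.05, adjusted p = 0.402). With the 2 deeper NB libraries alone (365 and 373 CPM) the 6h rise was 0.14 and was not called (adjusted p = 0.124).

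Isl1 (ENSMUSG00000042258, chromosome 13 from 116298270 to 116309688) codes for a LIM homeodomain factor of ON bipolar cells that is also made by ganglion cells and some amacrine cells. It ran from 88.8 to 117 CPM in NB with a median of 101, fell to 75.9, 80.2 and 74.5 CPM at 6h, stood at 87.7, 93.1, 78.9 and 76.7 CPM at 1d, and reached 122, 118, 119 and 108 CPM at 3d. Its low point was 6h, where no library overlapped NB. The log2 fold change was -0.41 ± 0.07 at 6h (adjusted p = 0.000207), the largest change of a member at that time, and it was -0.54 with the deeper NB libraries alone (adjusted p = 0.000251). It was -0.28 ± 0.07 at 1d (adjusted p = 0.00137) and 0.19 ± 0.07 at 3d (adjusted p = 0.0241). The 3d call did not pass without NB replicate B4 (0.15, adjusted p = 0.0535) or without 3d replicate 1, 2 or 3 (0.17 to 0.19, adjusted p between 0.0527 and 0.0728).

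Vsx1 (ENSMUSG00000033080, chromosome 2 from 150680702 to 150689137), a homeodomain factor of OFF cone bipolar cells and the scarcest of the 7 in read counts, ran from 29.96 to 34.3 CPM in NB with a median of 32.4. It stood at 31.1, 29.3 and 26.4 CPM at 6h, at 28.1, 26.4, 24.2 and 22.7 CPM at 1d, and at 37.0, 35.95, 31.6 and 30.5 CPM at 3d. The 1d libraries lay below every NB and 3d library, and 3d overlapped NB. The fall at 1d was -0.35 ± 0.07 (adjusted p = 0.000396) and the rise from 1d to 3d 0.41 ± 0.08 (adjusted p = 0.000711). Neither 6h (-0.16 ± 0.08, adjusted p = 0.125) nor 3d (0.06 ± 0.07, adjusted p = 0.517) passed the test against NB.

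The promoters of Cabp5 and Isl1 are printed because they held the remaining matches to TAATCC among the windows searched. The runs are again the 250 bases before the annotated start, at chr7:13397905-13398154 (+ strand) and chr13:116309689-116309938 (- strand), with matches in capitals. The Cabp5 window lies inside the span given above for that gene, which begins at 13385960.
Cabp5: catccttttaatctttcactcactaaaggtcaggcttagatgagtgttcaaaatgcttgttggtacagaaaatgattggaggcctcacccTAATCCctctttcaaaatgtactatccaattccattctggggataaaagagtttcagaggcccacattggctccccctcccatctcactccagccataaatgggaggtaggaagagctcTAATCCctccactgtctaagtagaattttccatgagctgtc
Isl1: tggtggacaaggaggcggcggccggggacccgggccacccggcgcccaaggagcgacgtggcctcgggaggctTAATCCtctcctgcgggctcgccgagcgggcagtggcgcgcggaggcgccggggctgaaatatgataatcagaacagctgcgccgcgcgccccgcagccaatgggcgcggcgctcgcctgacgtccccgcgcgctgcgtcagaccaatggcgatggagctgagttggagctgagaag
Cabp5 held TAATCC beginning 160 and 41 bases before its start, and Isl1 held it beginning 177 bases before. In all, 3 of the 7 genes had a match to TAATCC, in 3 of the 11 windows, beside 6.25% of all windows. TAATTA, found in 4.84% of all windows, occurred in 1 of the 4 Pcp2 windows, and CATATG, found in 3.46%, in none of the 11.

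**Figure D2:**
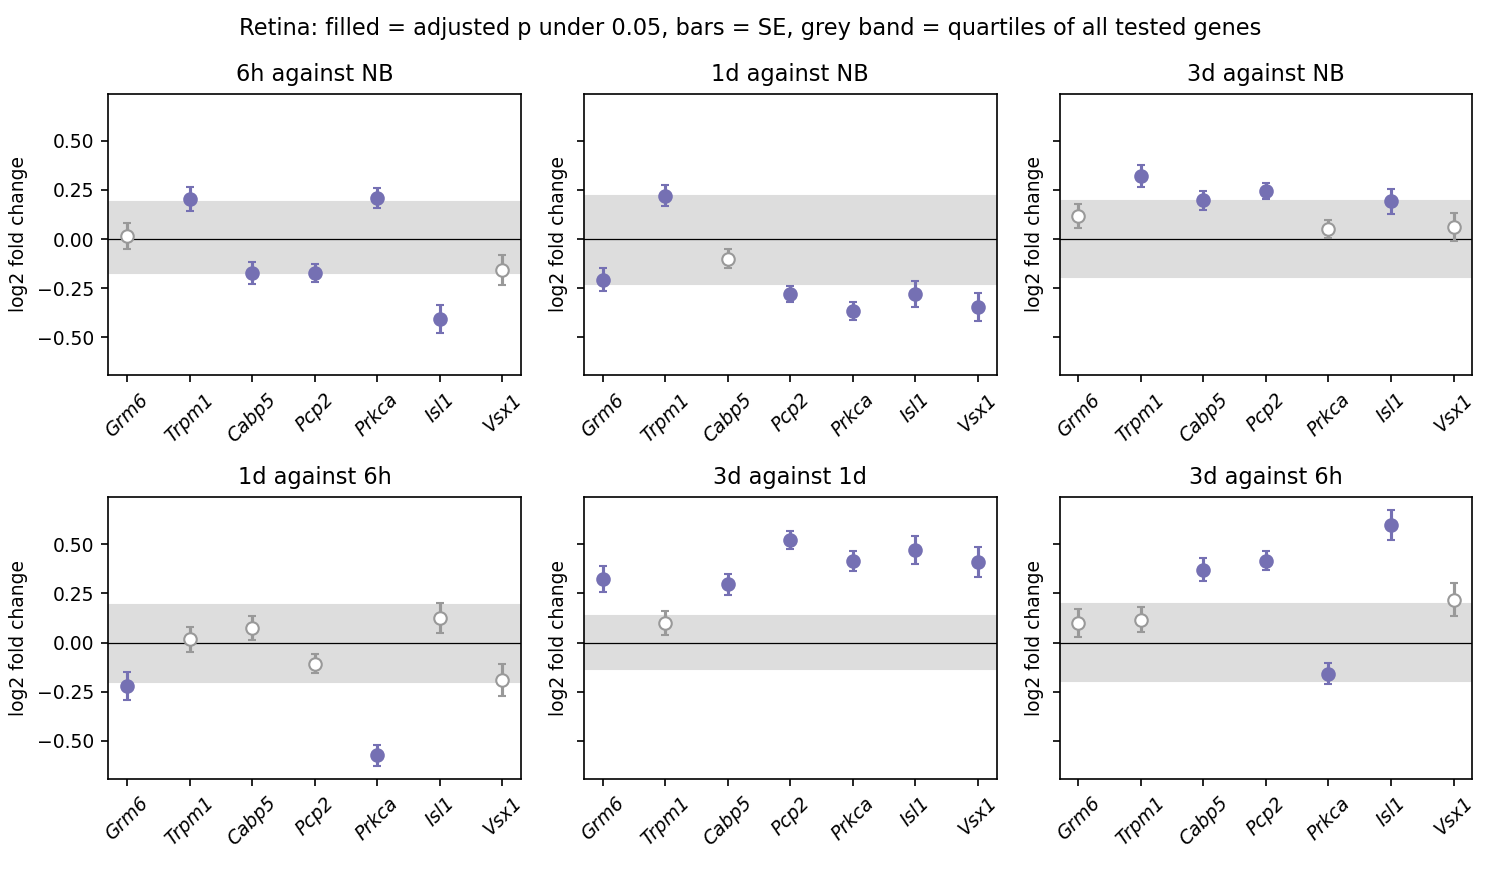
Log2 fold change of each bipolar cell gene (y axis, bars are SE) in the 6 retina comparisons; filled points have an adjusted p under 0.05 and the grey band spans the quartiles of all tested genes. Panels against NB share the NB libraries. In the panel of 3d against 1d the 6 filled points, from 0.30 to 0.52, lie above the band.

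At 6h the members were divided. Trpm1 and Prkca were higher and Cabp5, Pcp2 and Isl1 lower than NB, 2 and 3 of 7, beside 16.9% and 18.5% of all tested genes. Each of these 5 was also free of overlap with NB, beside 34.6% of all tested genes in either direction. Of the 5, Pcp2 and Isl1 were called and the other 3 were not when 6h was compared with the deeper NB libraries alone. From 6h to 1d, Grm6 and Prkca were lower, 2 of 7, and none was higher, beside 17.5% of all tested genes in each direction. With the depth set as a term Grm6 did not pass (-0.15, adjusted p = 0.399) while Isl1 was higher (0.32, adjusted p = 0.0375). With plain totals Grm6 did not pass (-0.09, adjusted p = 0.303), and Cabp5 and Isl1 were higher (0.21 and 0.26). Grm6 also did not pass in that contrast without 6h replicate 1 or 2 or 1d replicate 1 or 4 (-0.15 to -0.20, adjusted p between 0.0556 and 0.148), and Vsx1 did without 6h replicate 3 or 1d replicate 1 (-0.25 and -0.24, adjusted p = 0.0456 and 0.0385).

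From 6h to 3d, Cabp5, Pcp2 and Isl1 were higher by 0.37 ± 0.06, 0.42 ± 0.05 and 0.60 ± 0.08 (adjusted p = 7.24e-05, 2.4e-06 and 7.52e-06) and Prkca was lower by -0.16 ± 0.05 (adjusted p = 0.0283). These counts of 3 and 1 of 7 stand beside 16.5% and 18.5% of all tested genes called higher and lower. Isl1 went from 76.9 ± 3.00 to 117 ± 5.89 CPM, a fitted 1.51-fold rise. With the depth set as a term the 3 rises passed (0.30, 0.42 and 0.80), Trpm1 was higher (0.30, adjusted p = 0.0127), and Prkca was not called (-0.06, adjusted p = 0.641). With plain totals Prkca was not called either (-0.04, adjusted p = 0.563), and Grm6, Trpm1 and Vsx1 were higher (0.22, 0.23 and 0.33). Prkca was also not called in this contrast without 6h replicate 1 or 2 or 3d replicate 3 or 4 (-0.13 to -0.15, adjusted p between 0.0587 and 0.102). Vsx1 lay at the threshold (0.22 ± 0.08, adjusted p = 0.05) and was called without 6h replicate 1, NB B4, 1d replicate 1 or 4, or 3d replicate 3 or 4 (adjusted p between 0.0265 and 0.0494).

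Other genes of bipolar cells and of their synapse were grouped in 7 lists. In the list of the ON cascade, 13 genes beside the 4 members were tested, and 4 were higher, 5 lower and 4 not past at 1d against NB, with 7, 5 and 1 at 3d. Of all tested genes 24% were called higher and 27.5% lower at 1d, and 19.3% and 23.9% at 3d. With plain totals the counts of this list were 7, 4 and 2 at 1d and 8, 5 and 0 at 3d. Gnb3, the G protein beta subunit of ON bipolar cells that cones also use, rose from 388 ± 25.3 CPM in NB to 959 ± 56.8 at 1d (log2 fold change 1.303 ± 0.05, adjusted p = 4.19e-13) and stood at 650.0 ± 9.61 CPM at 3d. Lower genes of this list include several that photoreceptors also make or that lie on their side of the cleft. Gnb5 and Rgs9bp, parts of the complexes that switch off G proteins in rods, cones and ON bipolar cells, fell by 0.97 and 1.33 on the log2 scale at 1d. Lrit1 and Lrit3, leucine-rich repeat proteins of photoreceptor synapses, fell by 0.40 and 0.55. Lrit3, Gpr179, Nyx, Rgs7, Rgs11, Elfn1 and Dag1 are named for their roles, a choice made after their values were seen.

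Among genes that organise the mGluR6 complex on the bipolar dendrite, Gpr179 (214 ± 3.15 CPM in NB) and Nyx (27.2 ± 1.36 CPM) did not pass at 1d (-0.07 ± 0.05 and 0.11 ± 0.09), and both were higher at 3d (0.27 ± 0.05 and 0.24 ± 0.09, adjusted p = 0.000158 and 0.0276). Gnao1, the alpha subunit of Go, was higher at each time (0.22, 0.21 and 0.24). Rgs11 and Rgs7, which speed the shutoff of Go, were both higher at 3d (0.33 and 0.19), Rgs7 also at 1d (0.27), and with plain totals Rgs11 and Nyx at 1d too. Cacna1s, a calcium channel subunit found at the mGluR6 complex, was higher at 1d (0.69 ± 0.08) and lower at 3d (-0.38 ± 0.08, adjusted p = 0.000639). At 3d the ON cascade list had a median of 0.19, beside -0.02 over all tested genes.

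At 1d each subtype list held genes that rose and genes that fell, beside 24% and 27.5% of all tested genes called higher and lower. Of the other rod bipolar genes 2 were higher, 1 lower and 2 not past: Car8 (0.27 ± 0.07) and Vstm2b (0.14 ± 0.05) were higher, Sebox, a homeobox gene, was lower (-0.18 ± 0.06, but -0.01 and not past with plain totals), and the glycine transporter Slc6a9 and the GABA receptor subunit Gabrr1 did not pass (0.06 and -0.01). Prkca, the member of this list, fell by 0.37. ON cone bipolar genes other than Isl1 split into 4 higher, 4 lower and 2 not past. Htr3a, a serotonin receptor subunit, rose from 2.70 ± 0.484 to 12.2 ± 2.67 CPM (1.98 ± 0.13) and Kcng4, a potassium channel subunit, from 29.2 ± 2.92 to 52.8 ± 3.69 CPM (0.85 ± 0.08), while Cnmd fell by 0.63 and Cpne9 by 0.34 (0.18 and not past with plain totals). OFF cone bipolar genes other than Vsx1 split into 5 higher, 2 lower and 6 not past. Syt2, a synaptotagmin, rose from 30.2 ± 1.50 to 64.8 ± 4.50 CPM, and Grik1, a kainate receptor subunit that receives cone input in OFF cells, from 156 ± 11.4 to 219.8 ± 16.9 CPM, whereas Nxph1 fell by 0.49 and Tacr3 by 0.29 (0.12 and not past with plain totals). With plain totals the higher, lower and not past counts of the 3 lists at 1d were 4, 0 and 1, then 4, 1 and 5, then 7, 1 and 5.

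At 3d the same 3 subtype lists held 3 of 5, 4 of 10 and 7 of 13 genes higher, members left out, and none lower, and with plain totals 4, 7 and 10. Their medians without members were 0.18, 0.17 and 0.17. The direction at 3d rests on a table in which rods hold a smaller share, and 2 other inner retinal lists were also higher: all 10 amacrine genes and 5 of 8 ganglion cell genes were called higher at 3d, with medians of 0.25 and 0.24, beside 19.3% of all tested genes. Of 6 horizontal cell genes, 2 were higher, 1 was lower and 3 did not pass (median 0.16). Their part in the members' rise was not tested.

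Transcription factors of bipolar cells beside Isl1 and Vsx1 were 6 higher, 2 lower and 5 not past at 1d, and 6, 1 and 6 with plain totals. Without plain totals, 24% of all tested genes were called higher and 27.5% lower at 1d. Irx5 and Irx6, factors of cone bipolar types, were higher at 1d by 1.01 and 0.47, and Lhx4 by 0.23. Otx2, which photoreceptors and bipolar cells share, was lower at each time (at 3d not past with plain totals, -0.04), from 227 ± 6.96 CPM in NB to 176 ± 4.19, 155 ± 15.1 and 199 ± 4.15 CPM, and its mean was lowest at 1d, as were those of Grm6, Pcp2, Prkca and Vsx1. Isl1 and Vsx1 fell at 1d while Irx5, Irx6 and Lhx4 rose (Isl1 not past with plain totals).

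On the photoreceptor side of the synapse most genes fell. Of 12 genes, 8 were lower and 1 higher at 1d (median -0.49), and 9 were lower and 1 higher at 3d (median -0.46). Among all tested genes 27.5% were called lower at 1d and 23.9% at 3d. Slc17a7, the vesicular glutamate transporter that loads the transmitter bipolar cells sense, fell from 1505 ± 65.8 CPM to 861 ± 140.1 at 1d and 1105 ± 78.4 at 3d, and the calcium channel subunits Cacna1f and Cacnb2 fell by 0.92 and 0.81 at 1d. Elfn1, the adhesion protein by which rods contact mGluR6, was higher at 6h (0.87 ± 0.08, from 90.8 ± 3.46 to 167 ± 8.25 CPM) and lower at 1d and 3d (-0.26 and -0.56; at 1d -0.09 and not past with plain totals). Dag1, the dystroglycan gene, was the 1 higher gene at 1d and 3d (0.30 and 0.31). At 1d 10 of 10 rod markers were lower, and their part in the lower values of this list was not tested.

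Of 8 subunits of receptors for inhibitory transmitters at bipolar terminals, 5 were higher and none lower at 1d (median 0.18), and 2 were higher at 3d (7 and 7 with plain totals). Without plain totals, 24% of all tested genes were called higher at 1d and 19.3% at 3d. Gabrr2, a subunit of the GABA receptor typical of these terminals, rose from 74.9 ± 5.52 CPM to 96.1 ± 4.34 at 1d (0.36 ± 0.05, adjusted p = 1.97e-05), while Gabrr1 stood at 98.9 ± 4.33 CPM in NB and 98.1 ± 6.51 at 1d (-0.01 ± 0.05, but 0.15 and called with plain totals).

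From 1d to 3d a smaller share of each of these lists than of the 7 members was called higher. The members and lists were chosen with earlier results of these data known, and the part of that choice in this difference was not tested. Of all tested genes 9.79% were called higher and 11.6% lower. Members left out, 4 of 13 ON cascade genes were higher and 2 lower, as were 4 and 2 of 10 ON cone bipolar and 3 and 2 of 13 OFF cone bipolar genes. Of 13 transcription factors 3 were higher and none lower. None of the 5 other rod bipolar genes and none of the 8 inhibitory receptor subunits passed in either direction. On the photoreceptor side of the synapse 4 of 12 were higher and 2 lower. The medians of these 7 lists without members ran from -0.03 to 0.13, beside 0.41 for the 7 members, of which 6 were called higher.

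**Figure D3:**
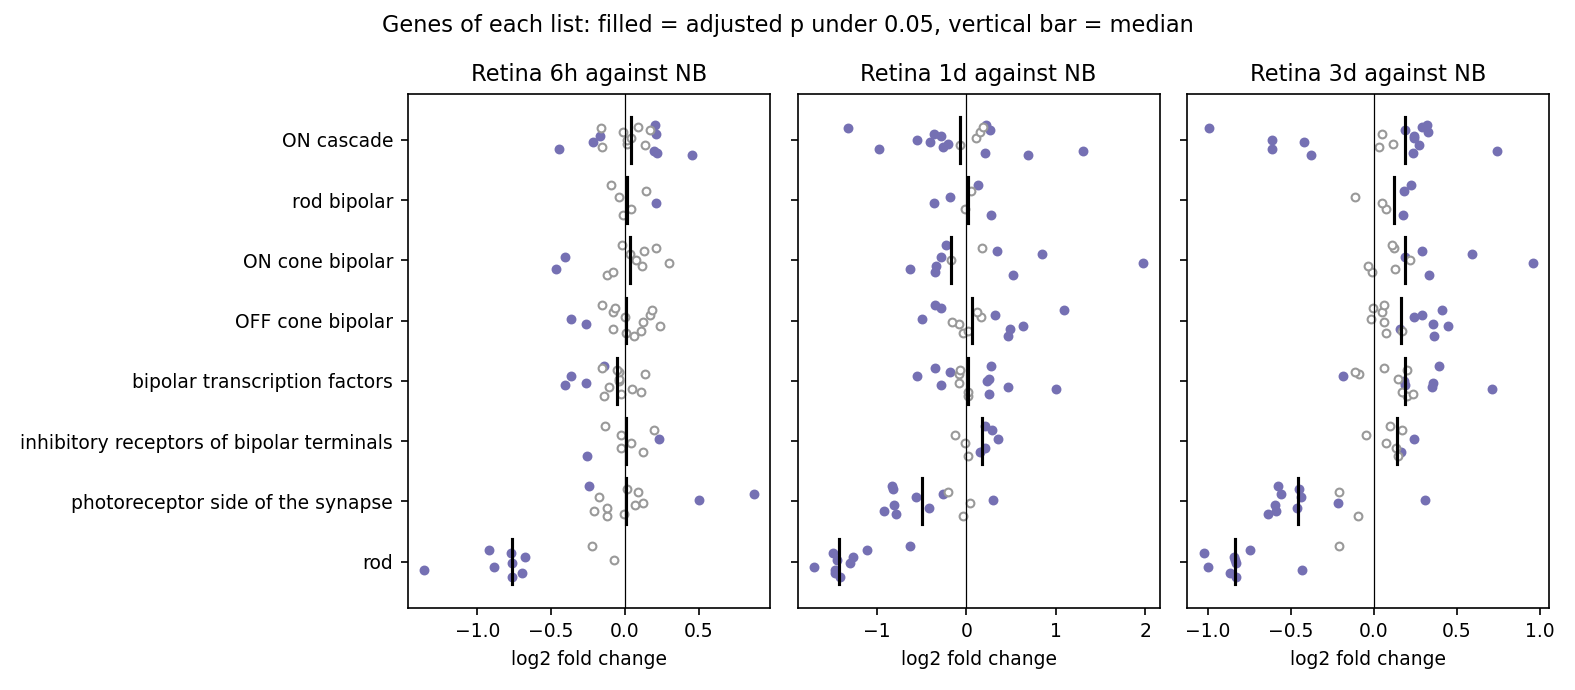
Log2 fold change (x axis) of every tested gene of the bipolar and synapse lists and of the rod list (y axis) at 6h, 1d and 3d against the same NB libraries; filled points have an adjusted p under 0.05 and vertical bars are list medians. At 1d the bipolar lists straddle 0 with medians between -0.17 and 0.18, and the photoreceptor side and rods lie lower, at -0.49 and -1.43.

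The genes whose course over the 17 retina libraries was most like that of each member were ranked by the root mean square difference of log2 levels, each centred on its own NB mean. Closest to Grm6 were Chrnb3, Fam168a and Ntng1 (0.09 each), and 249 other genes were closer to it than the nearest member, Prkca (0.14). Closest to Trpm1 were Pde4a, Gnao1 and Tbc1d4 (0.07, 0.07 and 0.08), with 4500 genes nearer than the nearest member, Cabp5 (0.25). Gnao1 is itself a gene of the ON cascade. Gpm6a and Abhd12 were among the 3 closest to Cabp5 (0.07 each), Gpm6b, Bsg and Tmem25 to Pcp2 (0.09, 0.09 and 0.10), and Trim2, Ralgapa2 and Sesn3 to Prkca (0.06, 0.09 and 0.09). Rhpn2, Acsl3 and Rpa1 were closest to Isl1 (0.11, 0.11 and 0.12) and Lrtm1, Grm5 and Rtn4 to Vsx1 (0.09, 0.10 and 0.10). Members were closest to each other for Pcp2 and Cabp5 (0.12), with 29 and 215 other genes nearer still, beside a median of 0.32 and 0.29 over all genes.

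In RPE the 7 genes did not pass the test at any time. With limma, 0 of 7 were called in each of the 6 comparisons, beside 1.46%, 5.61% and 0.18% of all tested genes at 6h, 1d and 3d against NB and 3.39%, 6.58% and 0.874% for 1d against 6h, 3d against 1d and 3d against 6h. At an unadjusted p under 0.05 the counts were 6, 1, 1, 1, 1 and 2 of 7 in that order. Among all 16712 tested genes they were 3036, 3613, 1659, 3973, 4775 and 3193. edgeR on recovered reads called 1, 0, 0, 0, 0 and 0 (Grm6 at 6h, adjusted p = 0.036), and DESeq2 called 3, 1, 0, 1, 0 and 1. The shares of all genes called by edgeR and DESeq2 are not given here. In the authors' deposited tables the smallest unadjusted p was 0.00103, for Grm6 at 6h, which came to 0.189 after adjustment over the table.

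The RPE table held 5 members at low levels that varied strongly within a group. Grm6 stood at 5.99, 3.93, 2.75, 4.35 and 4.91 CPM in NB A1 and B1 to B4, at 25.7, 7.29 and 23.7 CPM in 6h libraries 1 to 3, at 18.3, 11.4, 7.64 and 3.49 CPM at 1d, and at 17.9, 6.01, 10.3 and 6.92 CPM at 3d. Replicate 1 was the highest of each later group, and all 6h and 3d libraries lay above NB. At 3d this held for Grm6 and Pcp2, 2 of 7 beside 2.48% of all tested genes. The 6h mean of 18.9 ± 10.1 CPM compared with 4.38 ± 1.197 CPM in NB (log2 fold change 1.84 ± 0.48, adjusted p = 0.0646). Cabp5, Pcp2, Isl1 and Vsx1 followed the same libraries: in 6h 3 they stood at 18.5, 28.8, 10.9 and 2.64 CPM, and in NB they stayed between 3.21 and 5.57, 4.39 and 5.49, 2.10 and 3.198, and 0.392 and 0.998 CPM. At 6h 3 of the 7 genes (Grm6, Pcp2 and Vsx1) lay above NB in every library, beside 6.7% of all tested genes. Depth limits Vsx1, with 3 to 78 reads per RPE library.

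The 5 RPE libraries with the most rod RNA also held the most of these 5 genes. The rod sum was 15237, 9436, 8919, 8697 and 7827 CPM in 6h 3, 6h 1, 1d 1, 3d 1 and 1d 2, above the NB range of 4122 to 6671 CPM, and the sum of the 5 genes in those libraries was 84.5, 69.4, 74.3, 60.3 and 46.3 CPM, above every other RPE library (12.2 to 34.6 CPM). Among the other 11 libraries the order differed: NB B1 had the most rod RNA of them (6671 CPM) and a sum of 14.5 CPM, whereas 3d 3 had the highest sum (34.6 CPM) at a rod sum of 5241 CPM. No rod marker was at 0 in any RPE library. With the rod sum as a covariate, chosen after seeing the data, Grm6 at 6h was 0.89 (adjusted p = 0.373) in place of 1.84, and Pcp2 0.35 in place of 1.50. Because the rod sums of 6h 3 and 6h 1 lay above the NB range, the 6h values of this fit are partly an extrapolation. In retina, 8 of 10 rod genes were themselves lower at 6h against NB, beside 18.5% of all tested genes. The part of rod RNA in the 6h values cannot be told from this fit. Without 6h replicate 2, whose rod sum was 5584 CPM, Grm6, Prkca and Isl1 were called at 6h (2.40, 0.77 and 1.78, adjusted p = 0.0261, 0.0366 and 0.042), and Grm6 was also called without NB A1, 1d 1 or 1d 4 (adjusted p = 0.0393, 0.0433 and 0.0364). Without 6h replicate 2 or 1d replicate 1, Prkca was called lower at 1d than at 6h (-0.88 and -0.76, adjusted p = 0.0339 and 0.0419), and without 6h replicate 2 lower at 3d than at 6h (-0.87, adjusted p = 0.0498).

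Ratios between genes of 1 library do not depend on how a table is scaled, and they set Trpm1 and Prkca of the RPE table apart from the other 5. The ratio of Isl1 to Grm6 had a median of 0.456 over 17 retina and 0.425 over 16 RPE libraries, and that of Vsx1 to Grm6 0.137 and 0.132. Cabp5 and Pcp2 stood at 0.568 and 0.641 times Grm6 in retina and 0.802 and 1.12 times in RPE. Prkca was 1.54 times Grm6 in retina (range 1.29 to 1.97) and 6.00 times in RPE (range 2.93 to 16.7), so the ranges did not meet. Trpm1 was 2.04 times Grm6 in retina (range 1.73 to 2.92) and 102 times in RPE (range 17 to 336).

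Trpm1 in RPE averaged 763 ± 203 CPM in NB and 587 ± 129, 616 ± 218 and 1018 ± 265 CPM at 6h, 1d and 3d, with groups that overlapped except 3d and 6h, where the 4 libraries at 3d (724 to 1325 CPM) lay above the 3 at 6h (438 to 664 CPM), beside 12.6% of all tested genes. None of its changes passed (3d against NB 0.43 ± 0.28, adjusted p = 0.602, and 3d against 1d 0.77 ± 0.29, adjusted p = 0.111). The summed level of 8 melanocyte and melanosome genes ran with it at the extremes: it was 8078 CPM in 3d 2, which had the highest Trpm1 (1325 CPM), and 2231 CPM in 1d 4, which had the lowest (337 CPM). Prkca in RPE stood at 43.6 to 55.1 CPM in NB and at 75.3, 47.5 and 86.5 CPM at 6h (0.52 ± 0.19, adjusted p = 0.153), with its 2 highest libraries again those with the highest rod sums.

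**Figure D4:**
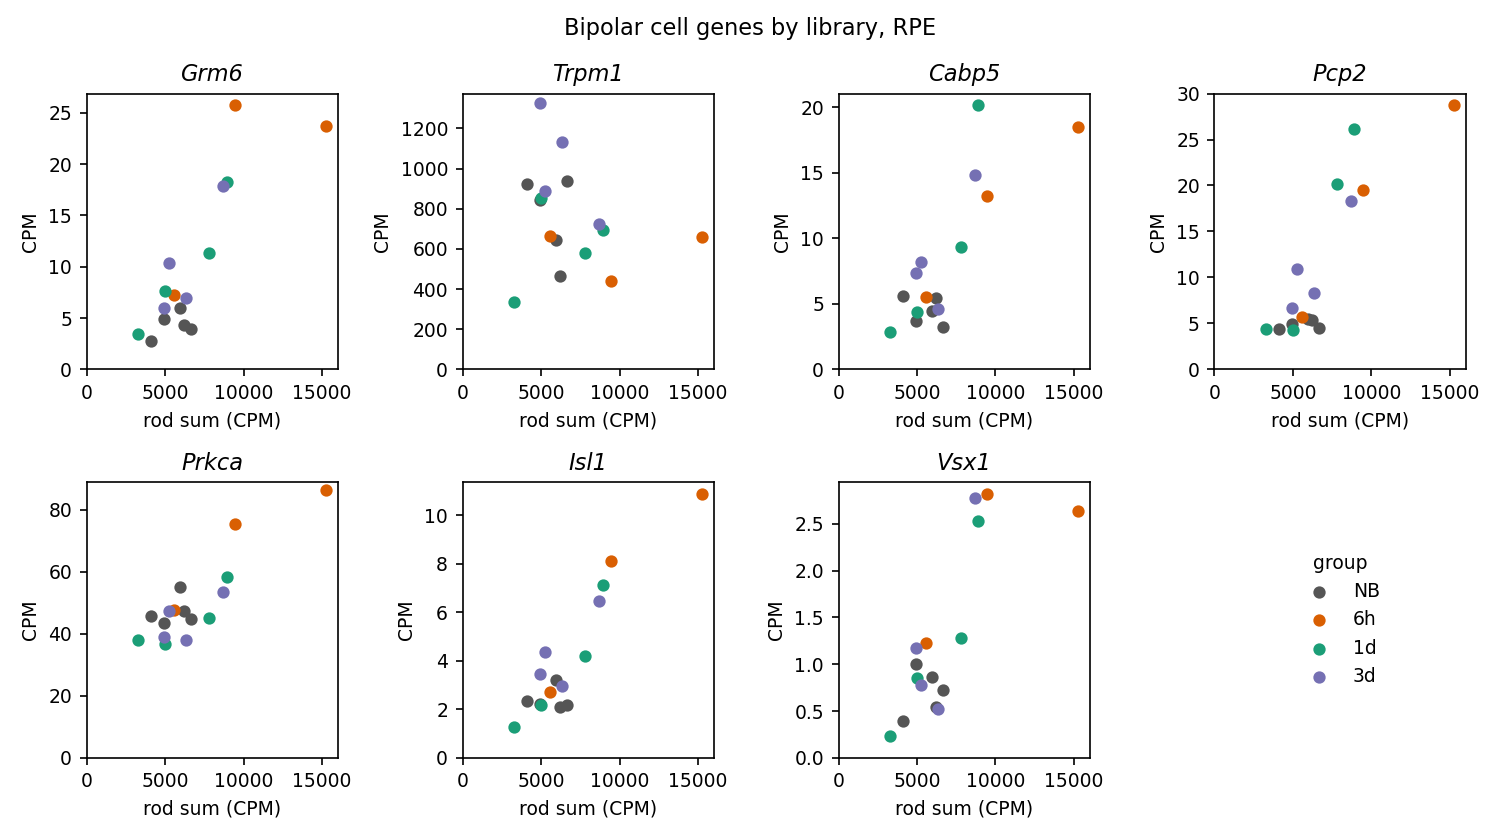
Level of each bipolar cell gene (CPM, y axis) against the summed level of 10 rod markers (CPM, x axis) in the 16 RPE libraries, coloured by group. For Grm6, Cabp5, Pcp2 and Vsx1 the 5 libraries with the highest rod sums are also the 5 highest for the gene, and for Trpm1 they are not.

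The response of the tissues was compared directly, each against its own NB and in separately normalized tables. This fit shared the estimate of spread of a gene between the tissues and used no pairing of retina with RPE libraries. The spread differed: fitted apart, Grm6 at 6h against NB had an SE of 0.07 in retina and 0.48 in RPE. In RPE alone no member passed at 6h against NB (limma, lowest adjusted p = 0.0646). At 6h the retina response was lower than the RPE response for Grm6, Pcp2, Isl1 and Vsx1 (differences of -1.82 ± 0.49, -1.68 ± 0.58, -1.64 ± 0.44 and -1.30 ± 0.42 on the log2 scale, adjusted p = 0.0103, 0.0427, 0.00998 and 0.0325), 4 of 7 beside 9% of all tested genes. The calls of Grm6 and Isl1 held without any other single library, while Pcp2 lost its call without any retina 6h or NB library, RPE 6h replicate 1 or RPE NB B1, B2 or B4, and Vsx1 without any retina 6h library, RPE 6h replicate 1 or RPE NB B2 (adjusted p between 0.0514 and 0.113). All 4 calls were lost without RPE 6h replicate 3, the library with the most rod RNA (adjusted p between 0.0522 and 0.195). Without RPE 6h replicate 2, Cabp5 and Prkca were called as well (-1.90 and -0.56, adjusted p = 0.00845 and 0.0174). Cabp5 was called too without RPE NB A1 or B3, 1d replicate 1, 3 or 4, or 3d replicate 1 or 4 (-1.43 to -1.50, adjusted p between 0.0139 and 0.0486). At 1d and 3d 0 of 7 were called by limma, beside 21.7% and 12.2% of all tested genes. At an unadjusted p under 0.05 the counts were 2 and 1 of 7, beside 5101 and 3984 of all 15105 tested genes. At 1d 1 to 3 of the 7 were called without RPE 1d replicate 4, which had the lowest rod sum (3297 CPM), or without RPE 1d 3, 3d 1, 6h 2, NB A1 or NB B3.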

How the data were processed

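RNA-seq libraries of retina (17) and RPE (16) were used; 34 ATAC samples were not analysed here. The submitters' processing notes name Trimmomatic, STAR, edgeR and GRCm38; the read counter is not given in the sources used here. The deposited values, a signal in CPM, were made by the authors on effective library sizes, and every value was a whole read within 0.01 (100%). The authors deposited log2 fold changes and unadjusted p-values against NB, whose column names in the file headers are those edgeR writes for a minimum-fold test. NB columns could be tied to the group only; the letters A and B were given here.

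Computed here, per tissue: genes at 1 CPM or more in at least 3 libraries (16926 retina, 16712 RPE), log2(CPM + 0.5), limma 3.58.1 with a trend over all groups, Benjamini-Hochberg adjustment over all tested genes, threshold 0.05; a tissue difference over 15105 genes. Fold changes are on this log2(CPM + 0.5) scale. The fit was run on simulated data with the same setting of spread for every gene in both tissues, and the outcome is not given here. That setting differs from the RPE data, where members varied strongly within a group. Alternatives were edgeR 4.0.16 and DESeq2 1.42.0 on recovered reads, scaling to plain totals, other pseudocounts and filters, only the groups compared, NB libraries of 1 depth set, a replicate block, each library left out, and, chosen after seeing the data, the depth set as a term and RPE or rod markers as a covariate. The members, the 16 gene lists and the naming rule (all members, up to 5 list genes with the smallest adjusted p at 1d, the 3 genes most like each member) were chosen with earlier results of these data known. Promoter windows came from RefSeq tables on GRCm38.p6. Some genes that the rule names are not reported here.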

Additional observations from a re-analysis of the deposited data

Results flagged for a closer look

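Cabp5 in retina 1d replicate 3 (106.5 CPM) lay far below the other 3 libraries of its group, its gap to the nearest being 0.892 of the group's range. Isl1 in RPE NB A1 (3.198 CPM) lay far above the other 4 NB libraries, with a gap of 0.767 of the range. Of 42 groups of members' values examined in this way 2 stood out, and chance alone gives about 1 in 20.

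At 6h the response against NB differed between retina and RPE by limma's test of the difference for 4 members, each lower in retina: Grm6 by -1.82, Pcp2 by -1.68, Isl1 by -1.64 and Vsx1 by -1.3 on the log2 scale. The RPE libraries 6h 3 and 6h 1 had the highest rod sums of the RPE table (15237 and 9436 CPM), and the part of rod or other retinal RNA in these differences was not tested.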

How the results depend on the processing

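Of 1176 recomputed values of members in retina, 1119 stayed on their side of the threshold, 33 lost and 24 gained a call, and 0 called values changed sign; in RPE the counts were 1115, 0, 17 and 0 of 1132, and for the tissue difference 693, 22, 20 and 0 of 735. Of those that stayed on their side, 10, 34 and 2 uncalled values changed sign, among them Cabp5 in retina at 1d (-0.10, and 0.07 with plain totals). In retina at 6h against NB, 5 members were called, but 2 with the NB libraries of 1 depth set, 2 with the depth set as a term and 3 with the RPE markers as a covariate; leaving out 1 library gave 4 to 5. At 3d against NB, 4 were called, 7 with plain totals and 3 to 4 with 1 library left out. From 6h to 1d, 2 were called, 1 when the 2 groups were fitted alone, 1 with the RPE covariate and 1 to 3 with 1 library left out. Leaving out 1 library gave 6 to 6 at 1d, 6 to 6 from 1d to 3d and 3 to 5 from 6h to 3d. In RPE the main limma fit called 0 in every comparison. At 6h edgeR called 1, DESeq2 3, the 2 groups alone 1, and leaving out 1 library 0 to 3. DESeq2 called 1 at 1d against NB, 1 from 6h to 1d and 1 from 6h to 3d, and leaving out 1 library 0 to 1 in each of the last 2. The tissue difference at 6h gave 0 to 6 and at 1d 0 to 3 with 1 library left out. The cause of these shifts was not tested.

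With plain totals, the log2 fold change at 1d turned for Gabrr1 (0.15), Fam168a (0.041), Gpm6a (0.15), Abhd12 (0.10) and Gpm6b (0.0057), and at 3d for Trim2 (0.13), Sesn3 (0.14) and Rtn4 (0.14). With the RPE covariate the retina value of the RPE gene Rgr turned at 3d (-0.13). Of 12348 values of other named genes, 11860 stayed on their side (250 of them uncalled with a changed sign), 277 lost and 202 gained a call.

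Replicate numbers did not pair the libraries: correlations of same-numbered libraries ran from -0.538 to 0.348 in retina and from -0.287 to 0.296 in RPE. With the replicate block, among 6h, 1d and 3d, retina gave 2, 6 and 4 members for 1d against 6h, 3d against 1d and 3d against 6h, and RPE 0, 0 and 0. NB was left out of the block, because the numbers in its column names could not be tied to single samples. Depth limits Vsx1 in RPE most.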
